A study of Rattus norvegicus with 15 samples.

Results

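A cluster of 6 neighbouring genes on rat chromosome 1 had no counts in untreated or H2O2-injured astrocytes and had counts after the cells received placental mitochondria. The members were chosen by their position and their counts: they are the annotated genes that lie whole between positions 79122608 and 79481865 of chromosome 1 (Rnor6.0) and that had 0 counts in all 3 control and all 3 H2O2 libraries, and at least 1 count in every mitochondria library or in every MitoCoat library. Of the 7 annotated genes in this interval of 359258 bases, 6 met the rule, out of 32552 genes in the count tables. The same count rule was met by 55 genes anywhere in the genome, which is 0.541% of the 10157 genes with 0 counts in the control and H2O2 libraries. Because these counts chose the members, their presence in the treated cells and absence from the untreated cells is a description and was not tested.

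Gene-level RNA-seq counts were analysed from 15 libraries of primary cortical astrocytes from Sprague Dawley rats aged 1 to 2 days, in 5 groups of 3 libraries. Control cells received vehicle, and all other cells were exposed to 100 µM H2O2 for 30 min. After 24 h, the last 3 groups also received unmodified mitochondria, MitoCoat (the same mitochondria coated with the lipids DOTAP and DOPE) or MitoCoat-mRNA (mitochondria-associated RNA encapsulated in those lipids, without the mitochondria), and RNA was collected 6 h later. The mitochondria came from cryopreserved rat placenta, and their amounts were set by protein for the mitochondria and MitoCoat and by RNA mass for MitoCoat-mRNA. The cells are labelled wild type in all groups, and the study calls the libraries of a group biological replicates. Whether they came from separate animals or isolations is not given in the sources used here, so p-values measure the spread between these libraries. The labels describe RNA extraction from mitochondria-enriched fractions, whereas the study describes profiling of the treated astrocytes. Whether transcripts were made by the astrocytes or were carried in with the placental preparation cannot be told apart from these counts, and neither can fewer cells of a type and less RNA per cell.

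Pregnancy-specific glycoproteins (Psg) and the related cell adhesion molecules of the Ceacam group belong to the carcinoembryonic antigen family, a branch of the immunoglobulin superfamily. Psg proteins are secreted by trophoblast, the epithelial lineage of the placenta, into the maternal blood, and several rodent Ceacam genes are likewise known from trophoblast. The genes of this family arose by repeated duplication and lie in arrays of close copies, so reads from one can align to another.

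The count tables carry Ensembl identifiers without gene names, and none of them could be looked up by identifier in the RefSeq table used here (assembly GRCr8). The identity of the locus was therefore examined by gene span, strand and order. Within 1000000 bases on either side of the interval, 7 of 85 genes formed a collinear run in which each had exactly the span and the strand of a RefSeq gene. Tmem160, Ceacam9 and Ccdc8 lay before the cluster, Nanos2, Irf2bp1 and Polr1g lay after it, and Ceacam11 lay inside it as the fifth gene, with a span of 6237 bases. Between Ccdc8 and Nanos2, RefSeq lists 29 genes, of which 18 are protein coding and 7 are named Psg or Ceacam. These are, in RefSeq order, Psg16, Ceacam3, Psgb1, Psg29, Ceacam11, Ceacam12 and Psg19. The stretch between Ccdc8 and Nanos2 is wider than the interval, so some of these may lie outside it. The sixth gene spanned 7057 bases, against 7056 for Ceacam12. The first 4 genes had no RefSeq gene of equal span and are given here by their order. The locus thus carries genes of the Psg and Ceacam family by span and order, while the names of single members other than Ceacam11 were not settled. The same lack of names meant that astrocyte, trophoblast and other cell type markers could not be read from these tables.

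Along the chromosome, 5 of the 6 genes are on the plus strand and the third is on the minus strand. The first gene (ENSRNOG00000027607) lies at 79122608 to 79135310 and has 7 exon blocks with 3183 exon bases in all. The second lies at 79181855 to 79190738 and has 6 blocks with 1606 bases. The third, at 79236392 to 79259492, has 5 blocks with 2170 bases, and the fourth, at 79324274 to 79358184, has 5 blocks with 1416 bases. The fifth (ENSRNOG00000017620, Ceacam11 by span), at 79396578 to 79402814, and the sixth, at 79474809 to 79481865, have 4 blocks each, with 944 and 1047 exon bases. The last pair of genes in the row is thus the most compact.

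**Figure D1:**
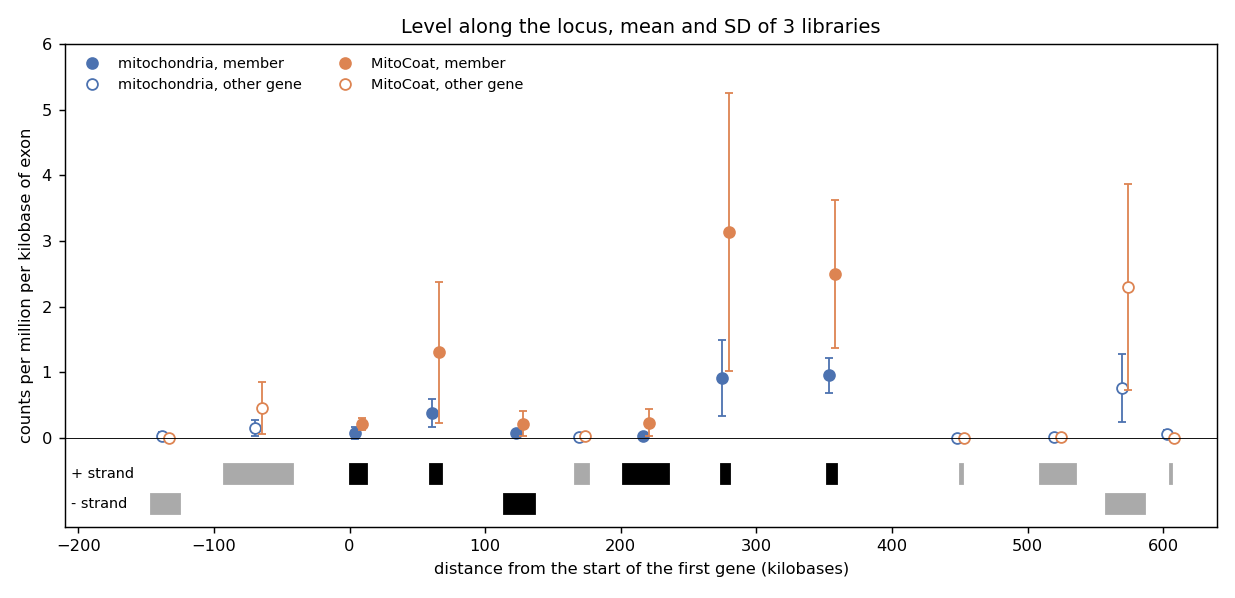
Level of each gene along the locus, as CPM (counts per 1000000 counts of the library) per kilobase of exon (vertical axis) against the distance in kilobases from the start of the first gene; points are means of 3 libraries and bars are SD, filled points are the 6 members, open points are other annotated genes with under 0.1 CPM per kilobase in control cells, and boxes below mark the genes by strand (black, members). The fifth and sixth genes have the highest levels among the members, and an open point beyond the cluster reaches a similar height in MitoCoat cells.

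Levels between genes were compared as CPM, counts per 1000000 counts of the library, per kilobase of exon. In the MitoCoat libraries the fifth gene had the highest mean level, 3.14 ± 2.12 CPM per kilobase (SD, n = 3), followed by the sixth at 2.49 ± 1.12 and the second at 1.31 ± 1.07. The fourth, the third and the first genes followed at 0.236 ± 0.201, 0.221 ± 0.192 and 0.214 ± 0.0870 CPM per kilobase. In the mitochondria libraries the order at the top was exchanged, with the sixth at 0.955 ± 0.262 and the fifth at 0.919 ± 0.578, ahead of the second at 0.383 ± 0.211. The third, the first and the fourth genes had 0.0843 ± 0.0241, 0.0740 ± 0.0913 and 0.0342 ± 0.0331 CPM per kilobase in these libraries. The fifth and the sixth genes differed by less than the SD of the libraries in both groups. So did each of the 3 lowest genes and its neighbour in the order, when set against the larger SD of the pair. By that measure the second gene was also not separated from the fifth in either group, or from the fourth in the MitoCoat libraries. The order is therefore not resolved within these sets, and only in part between them.

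The fifth gene, Ceacam11 by span, encodes a member of the carcinoembryonic antigen family known from trophoblast. Its counts were 40, 56 and 12 in mitochondria replicates 1 to 3 and 221, 101 and 48 in MitoCoat replicates 1 to 3. MitoCoat replicates 1 and 2 lay above all mitochondria libraries, while MitoCoat replicate 3, at 1.25 CPM, lay within the mitochondria range, so the groups overlapped. The means were 0.868 ± 0.546 CPM with mitochondria and 2.97 ± 2.00 CPM with MitoCoat (SD, n = 3), a ratio of 3.42.

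The sixth gene had 46, 48 and 32 counts with mitochondria and 168, 92 and 63 with MitoCoat. Every MitoCoat library was above every mitochondria library, and the replicates within a group were closer together than for the fifth gene. Its mean was 1.00 ± 0.274 CPM with mitochondria and 2.61 ± 1.18 CPM with MitoCoat, a ratio of 2.61.

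The second gene had 36, 28 and 12 counts with mitochondria and 147, 110 and 6 with MitoCoat. MitoCoat replicate 3 was here the lowest of the 6 libraries, below all mitochondria libraries, while the other MitoCoat libraries were the highest. The means were 0.615 ± 0.339 CPM and 2.10 ± 1.72 CPM, a ratio of 3.42 with groups that overlapped.

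The first gene had 22, 4 and 2 counts with mitochondria and 38, 32 and 14 with MitoCoat. Mitochondria replicate 1 exceeded MitoCoat replicate 3, so the groups overlapped. Its mean level was 0.235 ± 0.291 CPM with mitochondria and 0.681 ± 0.277 CPM with MitoCoat, a ratio of 2.89.

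The third gene, the single member on the minus strand, had 9, 8 and 6 counts with mitochondria and 32, 28 and 0 with MitoCoat. It was a member only through the mitochondria libraries, since MitoCoat replicate 3 had none. The means were 0.183 ± 0.0524 CPM and 0.479 ± 0.416 CPM, a ratio of 2.62 with overlapping groups.

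The fourth gene was the reverse case, with 2, 4 and 0 counts with mitochondria and 28, 10 and 4 with MitoCoat, and was a member only through the MitoCoat libraries. The 3 MitoCoat libraries were above the mitochondria libraries, by as little as 0.105 against 0.0935 CPM. Its means of 0.0484 ± 0.0469 CPM and 0.335 ± 0.285 CPM gave a ratio of 6.91, on the fewest counts of the 6 genes. Since the MitoCoat libraries chose this gene, its ratio is not ranked against the others. Thus 5 of the members had counts in every mitochondria library (background 0.335% of the genes with 0 counts in the control and H2O2 libraries), 5 in every MitoCoat library (background 0.394%) and 4 in both. The rule required counts in every library of either group, so these numbers follow from the choice of members and show no enrichment.

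At the threshold of the rule, the third gene had 6 counts in its lowest mitochondria library and the fourth had 4 in its lowest MitoCoat library. Just outside it, the seventh annotated gene of the interval, at 79289164 to 79298999 between the third and the fourth members, had 2, 0 and 0 counts with mitochondria, 2, 4 and 0 with MitoCoat, and 0 in the other 9 libraries.

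**Figure D2:**
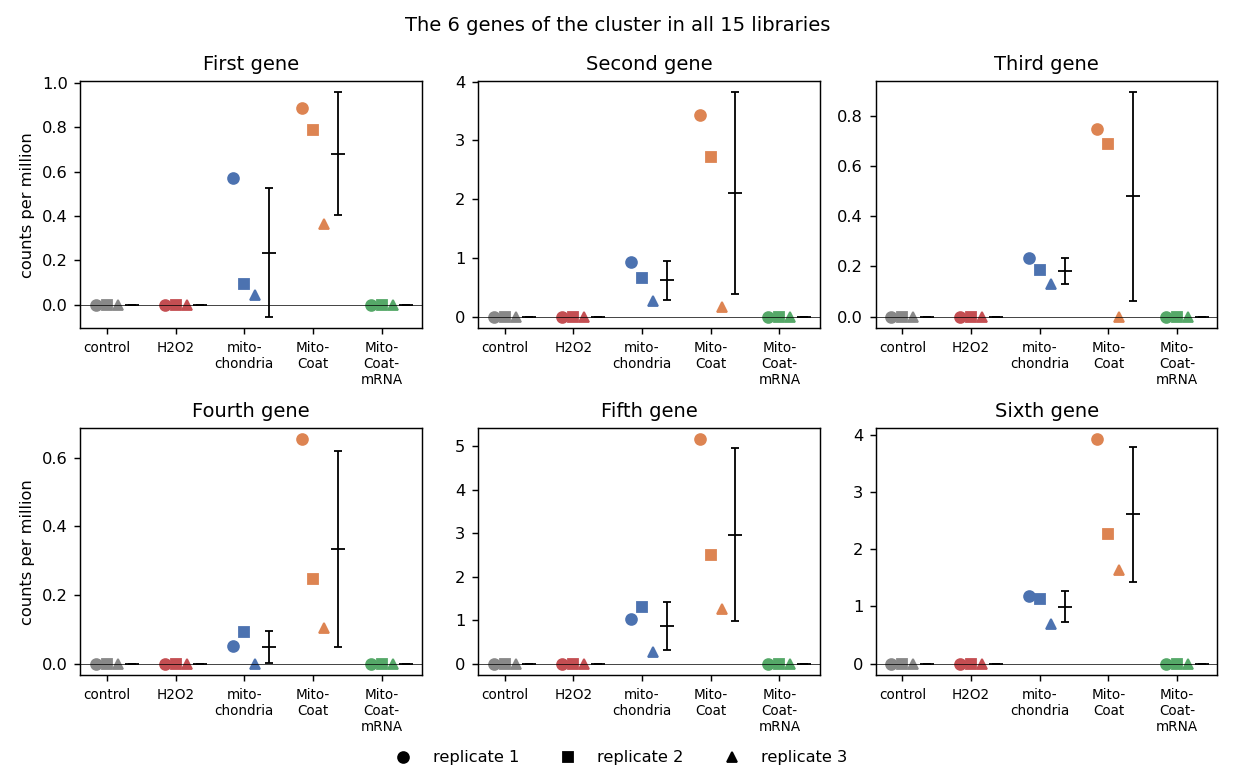
CPM of each of the 6 genes in all 15 libraries, with one panel per gene and its own vertical axis; symbols mark the replicate number, and the bar beside each group is the mean with SD of 3 libraries. All control, H2O2 and MitoCoat-mRNA points are at 0, and MitoCoat replicate 1 is the highest point in every panel.

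The members were high in the same libraries. In each of the 6 genes the highest of the 15 libraries was MitoCoat replicate 1. Summed over the 6 genes, the counts were 155, 148 and 64 in mitochondria replicates 1 to 3 and 634, 373 and 135 in MitoCoat replicates 1 to 3. These sums correspond to 4.01, 3.46 and 1.37 CPM with mitochondria and to 14.8, 9.19 and 3.53 CPM with MitoCoat. Replicate 3 was the lowest of its group in both treatments, and within a group the highest library exceeded the lowest 2.93-fold with mitochondria and 4.20-fold with MitoCoat.

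The control, H2O2 and MitoCoat-mRNA libraries had 0 counts in all 6 genes. The count rule did not use the MitoCoat-mRNA libraries, but it set the values they would be compared with, so no test was made. Over 129297511 counts in the 3 MitoCoat-mRNA libraries together, 0 counts allow a summed level of up to 0.0464 CPM. This limit is 3 read pairs, or 6 counts, over the group and covers counting error only: most counts were even numbers (29 of the 34 member values above 0, and 85.6% of all gene values from 1 to 250), so mates of a read pair appear to have been counted separately. The mean with mitochondria, 2.95 ± 1.39 CPM (SD, n = 3), was at least 63.5-fold above this limit, and that with MitoCoat, 9.17 ± 5.64 CPM, at least 197.7-fold. Even the lowest library of each treatment was at least 29.5-fold (mitochondria) and 76.0-fold (MitoCoat) above this pooled limit. For a single MitoCoat-mRNA library the limit is higher, 0.135 to 0.148 CPM. The lowest libraries had 1.37 CPM (mitochondria) and 3.53 CPM (MitoCoat). Of the 49 other genes that met the count rule, 28 also had 0 counts in the MitoCoat-mRNA libraries, and the 49 genes had 64 counts there in all. These genes also had fewer counts in the 6 mitochondria and MitoCoat libraries together, with a median of 18 against 225.5 for the 6 members, so 0 counts are less informative for them. Counts in all 3 MitoCoat-mRNA libraries were found for 5 of the 10157 genes with none in the control and H2O2 libraries (background 0.0492%), and at least 1 count in the 3 libraries together for 600 (5.91%). No member was in either set.

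**Figure D3:**
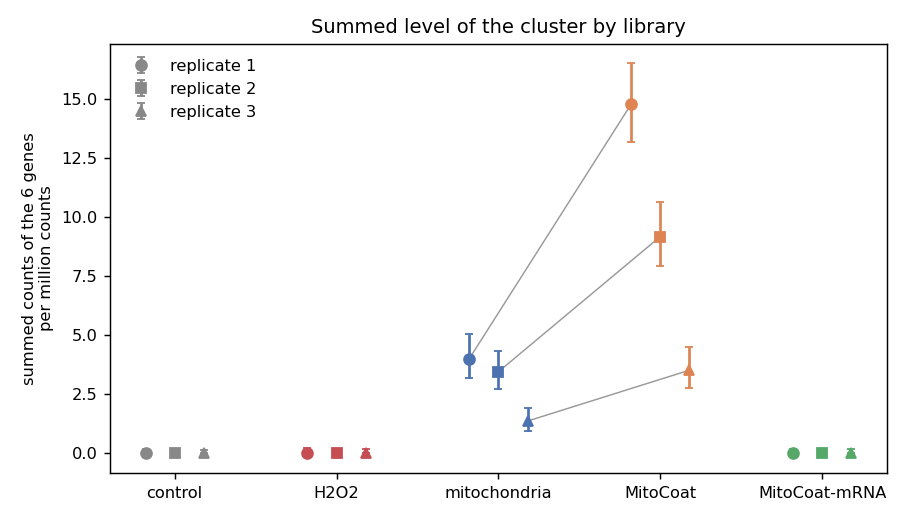
Summed level of the 6 genes in CPM for each of the 15 libraries; bars are exact 95% binomial intervals over read pairs (counts halved), which cover counting error only, and grey lines join mitochondria and MitoCoat libraries of the same replicate number. MitoCoat is higher in each of the 3 pairs, while MitoCoat replicate 3, at 3.53 CPM, lies among the mitochondria libraries.

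Whether the lipid coat changed the amount of these transcripts was examined by comparing MitoCoat with unmodified mitochondria, a difference that the rule did not use directly, although the fourth gene entered through MitoCoat alone and the third through mitochondria alone. The summed level was 3.11-fold higher with MitoCoat (1.64 on the log2 scale), with groups that overlapped, and the difference did not pass a two-sided exact permutation test (p = 0.2; the smallest p that 3 against 3 libraries allow is 0.1). The sum kept both of these genes, and the sum without them was not tested. The fourth held 6 of 367 counts with mitochondria and 42 of 1142 with MitoCoat, and the third held 23 and 60. Libraries of the same replicate number deviated together across genes, so the pairs were also compared. The sample titles do not state such pairs, which were inferred from these same libraries. The paired and blocked results depend on that inference. MitoCoat exceeded mitochondria 3.69-fold, 2.66-fold and 2.57-fold in replicates 1, 2 and 3, and the paired exact permutation test gave p = 0.25, the smallest value that 3 pairs allow.

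In edgeR's quasi-likelihood test across 15731 genes, no gene passed an adjusted p of 0.05 (background 0%), and 779 genes (4.95%) had an unadjusted p under 0.05. DESeq2 called 3 genes, none of them a member. The third and the fourth members did not pass the filter on low counts, and 0 of the 4 tested members were called. The log2 fold change of the sixth gene was 1.39 (SE 0.39, 95% interval 0.51 to 2.26, edgeR unadjusted p = 0.00558, adjusted p = 0.889). For the fifth gene it was 1.78 (SE 0.62, interval 0.41 to 3.15, edgeR unadjusted p = 0.0161), and this interval and that of the sixth gene lay above 0 before adjustment. The second gene had 1.79 (SE 0.83, interval -0.07 to 3.64) and the first 1.56 (SE 0.81, interval -0.24 to 3.36), and both intervals included 0. The edgeR adjusted p was 0.889 for each of the 4 genes. The sixth gene was higher with MitoCoat without overlap between the groups, a pattern found in 5.53% of the 22507 genes with at least 1 count in these 6 libraries. The fourth gene showed it too, but it was chosen through the MitoCoat libraries alone, so nothing is read from it. Single libraries moved some estimates: without mitochondria replicate 1 the log2 fold change of the first gene was 3.28, and without MitoCoat replicate 1 that of the fifth was 1.11.

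With the replicate number as a block, edgeR called 5 genes (background 0.0318%), all higher with MitoCoat, and 1402 genes (8.91%) had an unadjusted p under 0.05. No member was among the 5, which included the chromosome 17 genes at 4165041 and 39188311 and the chromosome 1 gene at 79680194. The blocked log2 fold changes were 1.92 (SE 0.66) for the first gene, 1.44 (SE 0.48) for the second, 1.78 (SE 0.35) for the fifth and 1.33 (SE 0.29) for the sixth, with edgeR adjusted p of 0.446, 0.445, 0.227 and 0.268. The estimates moved little for the fifth and sixth genes and their SE fell. The difference between MitoCoat and mitochondria was above 0 in the 4 members tested and did not pass the test in any. Over all genes tested, the median log2 difference was -0.0018 and 49.6% of genes were above 0.

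**Figure D4:**
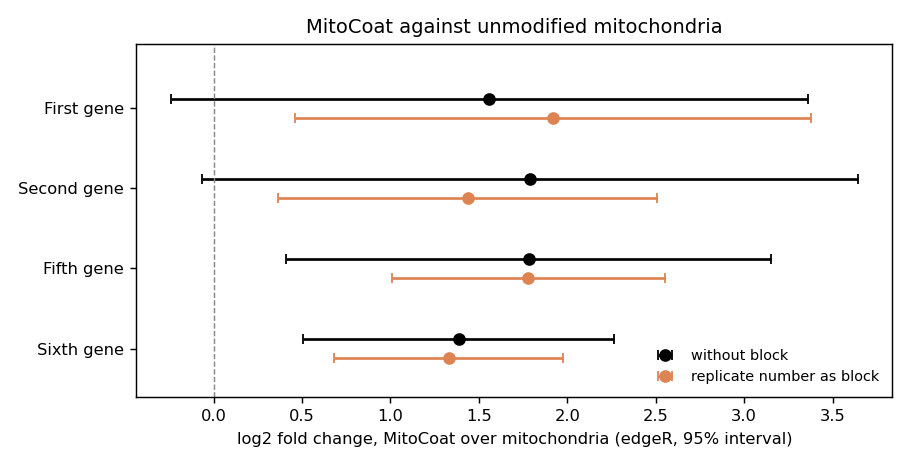
Log2 fold change of MitoCoat over mitochondria (horizontal axis) with edgeR 95% intervals for the 4 members that passed the filter on low counts, without a block (black) and with the replicate number as a block (orange). All points lie above 0, and the intervals of the first and second genes cross 0 only without the block.

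The make-up of the cluster was examined as each gene's share of the summed counts. The fifth and sixth genes together held 63.8% of the counts over the mitochondria libraries and 60.7% over the MitoCoat libraries. By library, their joint share was 55.5, 70.3 and 68.8% in mitochondria replicates 1 to 3 and 61.4, 51.7 and 82.2% in MitoCoat replicates 1 to 3. The sixth gene alone held 29.7 and 32.4% in mitochondria replicates 1 and 2 and 32 of 64 counts in replicate 3, and 26.5, 24.7 and 46.7% in MitoCoat replicates 1 to 3. Replicate 3 had the highest share of the sixth gene in both treatments, beside the lowest summed level. By exact 95% binomial intervals over read pairs, which cover counting error only and not the spread between libraries, the share in mitochondria replicate 3 (31.9 to 68.1%) overlapped that in replicate 2 (22.0 to 44.3%) and replicate 1 (19.7 to 40.9%). In MitoCoat replicate 3 the interval was 34.8 to 59.6%, above those of replicate 1 (21.7 to 31.7%) and replicate 2 (18.6 to 31.4%). The second gene held 18.8 to 23.2% in the mitochondria libraries and 23.2, 29.5 and 4.44% in MitoCoat replicates 1 to 3, so its share was lowest in MitoCoat replicate 3.

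**Figure D5:**
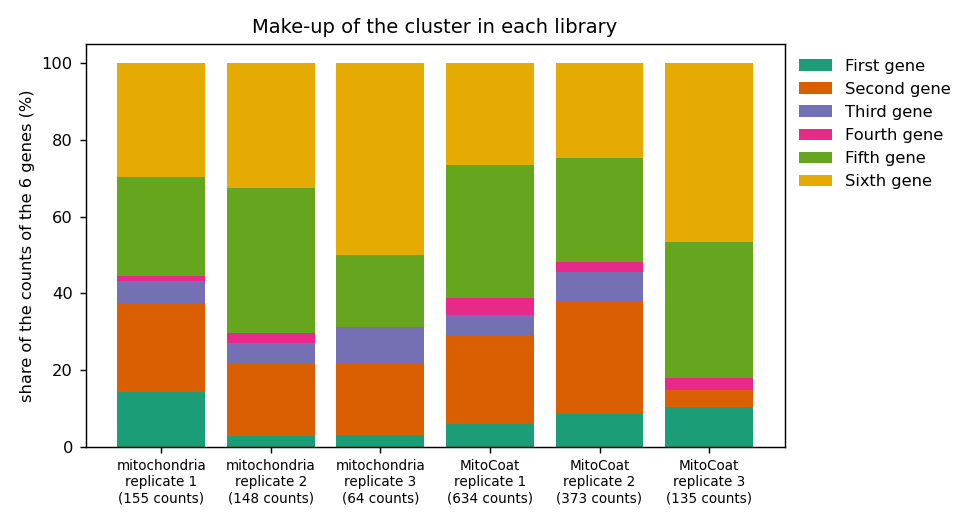
Share in percent of the summed counts of the 6 genes that each gene held, in the 6 libraries with counts (the number of counts is given under each bar). The sixth gene (top) takes a larger share in replicate 3 of both treatments, and the second gene shrinks in MitoCoat replicate 3.

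A pair of genes outside the interval had most of their counts in the same 6 libraries, with traces elsewhere. The gene at 79680194 to 79708835 on the minus strand had 220, 195 and 40 counts with mitochondria, 777, 505 and 114 with MitoCoat, 2 in control replicate 3, 2 in MitoCoat-mRNA replicate 2 and 0 in the other libraries. Its level, 2.30 ± 1.57 CPM per kilobase with MitoCoat (SD, n = 3), was within the SD of the levels of the fifth and sixth members. It was 1 of the 5 genes that edgeR called with the replicate block (log2 fold change 1.61, SE 0.15, adjusted p = 0.00513), while without the block its edgeR adjusted p was 0.889. On the other side, the gene at 79030291 to 79080881, chosen for mention after its values were seen, had 22, 44 and 6 counts with mitochondria, 91, 121 and 2 with MitoCoat, 2 in control replicate 1 and 2 in H2O2 replicate 1. Like the second member, it was lowest in MitoCoat replicate 3.

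Over the 15 libraries, the 5 genes outside the interval whose log2(CPM + 0.1) was most like that of the summed cluster, among 18680 genes compared, had Pearson r of 0.990 to 0.995. These were the genes at 4165041 to 4167411, 42771526 to 42777186 and 39188311 to 39463715 of chromosome 17, the gene at 41442899 to 41445722 of chromosome 8, and the chromosome 1 neighbour at 79680194. The correlation is a description, since 9 libraries at or near 0 and the same 6 libraries above it fix most of it. The chromosome 8 gene followed the cluster less closely between the treatments. With 43, 36 and 40 counts with mitochondria and 102, 80 and 34 with MitoCoat, it was not low in mitochondria replicate 3. The edgeR log2 fold changes of MitoCoat over mitochondria without the block were 0.90 for this gene and 1.82, 1.23 and 1.84 for the chromosome 17 genes in the order given (adjusted p = 0.889 each). With the replicate block, edgeR called those at 4165041 (1.78, adjusted p = 0.00478) and 39188311 (1.84, adjusted p = 0.00513) along with the chromosome 1 neighbour. These genes were chosen for their likeness to a summed profile in which MitoCoat was already above mitochondria in each pair, so their calls are a description and lend nothing to the cluster.

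Genes that met the same count rule also lay close together on chromosome 17, where 2 places were examined. The 8 genes from 3210130 to 4167411 had summed levels of 6.44 ± 4.28 CPM with mitochondria and 21.1 ± 14.99 CPM with MitoCoat (SD, n = 3), a ratio of 3.28, and the 6 genes from 38710432 to 39575720 had 4.98 ± 3.35 and 17.04 ± 12.3 CPM, a ratio of 3.42, beside 3.11 for the chromosome 1 cluster. The gene at 4165041, named above, held most counts of the first set. It had 240 of 324, 250 of 402 and 50 of 72 counts in mitochondria replicates 1 to 3. In MitoCoat replicates 1 to 3 it had 1103 of 1467, 664 of 989 and 146 of 184. The second set includes the gene at 39188311, so neither set is separate from the genes named above. The level of the chromosome 1 cluster relative to the first of these sets was 0.478, 0.368 and 0.889 in mitochondria replicates 1 to 3 and 0.432, 0.377 and 0.734 in MitoCoat replicates 1 to 3. Replicate 3 of both treatments had the highest ratio, so the chromosome 1 cluster was less reduced there than the chromosome 17 genes. Relative to the second set the ratios were 0.513, 0.592 and 1.07 with mitochondria and 0.533, 0.466 and 0.978 with MitoCoat, with replicate 3 again the highest. No difference in these ratios between MitoCoat and mitochondria was detected (log2 difference -0.13, exact permutation p = 0.7, and -0.14, exact permutation p = 0.6). The smallest p that 3 against 3 libraries allow is 0.1, and the test left the replicate numbers out, so equal ratios are not shown. In the MitoCoat-mRNA libraries these sets had 4 and 6 counts, against 0 for the chromosome 1 cluster, and this difference was not tested. As a share of the counts of all 55 genes that met the rule, the 6 members made up 15.4, 14.3 and 19.6% in mitochondria replicates 1 to 3 and 16.9, 14.4 and 21.6% in MitoCoat replicates 1 to 3.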

How the data were processed

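RNA was sequenced as polyA libraries. Per the labels and the study's methods, the authors trimmed reads with Trimmomatic (v0.36), aligned them to Rnor6.0 with STAR (v2.5.2b) and deposited raw counts per gene from featureCounts (Subread v1.5.2), made from uniquely mapped reads over exons. Reads from near-identical family members may therefore be lost or assigned to another copy, and whether strand was used is not settled by the sources. Total counts were 35315654 to 46778663 per library. A second copy of 1 library's table was identical and was not used.

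CPM was each count divided by the library total. Intervals and limits were taken over read pairs (counts halved and rounded up), a choice made after seeing that most counts were even. MitoCoat was compared with mitochondria by edgeR 4.0.16 (TMM, filterByExpr, quasi-likelihood test, Benjamini-Hochberg adjustment over all genes tested), checked on simulated data. Alternatives used DESeq2 1.42.0, other scaling, filters and rules, a replicate block and libraries left out. Deviations of same-numbered libraries from their group means correlated at 0.25, 0.24 and 0.212 over 15731 genes (different numbers -0.19 to -0.044), so the numbers were taken to pair them. Taking deviations from group means itself pushes the correlations of different numbers below those of equal numbers. The titles give only a number, and the study says that the RNA samples of each group were picked at random. The pairing is therefore an inference from these same libraries. Summed levels were tested by exact permutation. All members were named, with other interval genes that had counts and the 5 genes outside it most alike over the libraries. The members and lists were chosen with earlier results of these data known. Gene lists that need names were not analysed here. Python 3.11.15, scipy 1.17.1 and R 4.3.3 were used.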

Additional observations from a re-analysis of the deposited data

How the results depend on the processing

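The number of genes called between MitoCoat and mitochondria was 0 with edgeR, 3 with DESeq2 (2 higher, 1 lower) and 5 with edgeR and the replicate block (all higher). It was 0 with median-ratio factors, with all genes of at least 1 count, with every library left out in turn (0 to 0), and with counts halved, an alternative chosen after seeing the data. Besides the gene at 79680194 of chromosome 1 and those at 4165041 and 39188311 of chromosome 17 (block), the called genes, chosen for mention after their values were seen, were those at 221158098 of chromosome 1 and 10160 of the mitochondrial genome (both by the block and by DESeq2, higher) and at 176731769 of chromosome 3 (DESeq2, lower). No member was called under any of these alternatives. For the 4 members that passed the filter, the 44 log2 values under alternatives were 0.97 to 3.28, with adjusted p of 0.227 to 1 from edgeR or DESeq2; the third and the fourth genes are left out of this range. The summed log2 difference ranged from 1.11 (without MitoCoat replicate 1) to 2.02 (without MitoCoat replicate 3) with a library left out, and was 1.64 with TMM, 1.63 with DESeq2 size factors, 1.58 without the fifth gene and 1.55 within pairs (replicate block, exact permutation p = 0.25). The block changed no other call. The summed MitoCoat-mRNA level stayed at 0. The rule gave 6 genes with at least 2 counts, 5 with at least 5 counts, and 6 to 7 with a library left out. Low counts and 3 libraries a group limit these values, and reads shared between near-identical copies may do so too.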
